A study of Mus musculus with 4 samples.

Results

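Interferon-responsive microglia outside MGnD were 818 of the 12883 cells kept from 4 single-cell RNA libraries of brain myeloid cells. MGnD is the neurodegenerative microglial phenotype that forms around amyloid. A barcode counted as a cell with 2000 or more UMIs (unique molecular identifiers, each standing for 1 captured transcript) in 500 or more genes, of which no more than 10% were mitochondrial. Members were selected on their UMIs: a UMI in at least 4 of 10 interferon-induced genes (Ifit1, Ifit2, Ifit3, Isg15, Rsad2, Usp18, Oasl1, Cxcl10, Slfn5, Ifi204), and in fewer than 4 of 8 MGnD genes (Clec7a, Itgax, Lpl, Cst7, Igf1, Axl, Fabp5, Baiap2l2). Those 18 genes chose the cells and their levels are not given as results. The number of members, and the bins of weaker and stronger cells below, are counts of cells by those genes. There were 9059 other cells outside MGnD, 763 cells that met both sides of the rule (the interferon and the MGnD programme together) and 2243 MGnD cells without the interferon part.

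The cells were CD11b+/CD45+, sorted by flow cytometry from the left hemisphere after a Percoll gradient. Every library came from mice labelled female, 4 months old and carrying APP/PS1, mutant human genes that drive amyloid plaques in mouse brain. The Control group carried APP/PS1 alone (2 libraries), and the cKO group was APP/PS1:miR-155 cKO (2 libraries), titled as a deletion of the microRNA miR-155 in microglia. There was no group without amyloid. The labels name neither the Cre driver nor the deleted stretch, and they do not say how many mice entered a library. The replicates are labelled biological, without saying that they were separate mice, so p-values measure the spread between these libraries. The comparisons below ask how the interferon-responsive cells differ from the cells beside them, and whether loss of miR-155 changes how many there are or what they express.

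Type I interferons (alpha and beta) signal through the receptor chains Ifnar1 and Ifnar2 and the kinases Jak1 and Tyk2, which activate a complex that holds Stat2 and Irf9. That complex binds the interferon-stimulated response element, a DNA motif built from GAAA and GAA repeats in the promoters of antiviral genes, and the induced factor Irf7 extends the response. Interferon gamma acts through another motif, the gamma-activated site, and induces guanylate-binding proteins, immunity-related GTPases, CXCR3 ligands and MHC class II. In brain, interferon-responsive microglia are a recognised minor state in development, ageing and amyloid models.

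The 4 libraries held 2633 to 3999 kept cells with a median of 6412 to 7431 UMIs per cell. They shared between 0 and 4 cell barcodes pairwise. Control replicate 1, labelled female, held 0 UMIs of Xist, the RNA of the inactive X chromosome, in its members, against 1952 to 2136 CPM (UMI counts scaled to a fixed library total) in the other 3 libraries, and 4 Y-linked genes were at or near 0 in all 4. In the deposited names, the run code of cKO replicate 2 is unlike that of the other 3 libraries, so run code and the second cKO library cannot be told apart. Values that change without either library are given beside the results. Mir155hg, the host transcript of miR-155, was at 0 to 0.5 CPM in members of every library. The part of the transcript deleted is not stated, so it is no check of the genotype.

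By the level of microglial markers the members were microglia. The summed level of 12 microglial markers was 21262 and 21563 CPM in members of the cKO libraries and 23126 and 20484 CPM in the Control libraries. In the other cells outside MGnD of the same libraries it was 22818, 22918, 24212 and 21572 CPM, which is close to the members in each case. Sall1, a transcription factor of microglial identity, stood at 305 to 362 CPM in members and 325 to 375 CPM in the other cells. Of 10 lymphocyte markers 2 to 4 were detected in the members of each library, with a summed level of 273.8 to 349.0 CPM in members and 273.1 to 334.1 CPM in the other cells. Cd3e, Ms4a1, Nkg7, Trbc2, Ncr1 and Gzma were at 0 in members of all 4 libraries, and Cd79b, of the B cell receptor, was at 24.5 to 31.3 CPM in members and 28.7 to 31.4 CPM in the other cells. Border macrophage markers (2 or more of 10) were present in 4.41, 4.64, 6.76 and 3.53% of members of cKO replicates 1 and 2 and Control replicates 1 and 2, and monocyte markers (2 or more of 8) in 1.96, 2.11, 2.90 and 2.94%. Among other cells outside MGnD the shares were 1.20 to 2.23% and 0.241 to 0.894%, at a lower median depth. Markers of any other type (2 or more of any 1 list) were present in 45.1, 49.4, 43.5 and 40.0% of members, in the same order. In the other cells these shares were 27.0, 29.9, 26.5 and 26.2%. With cells thinned to 2000 UMIs they were 5.88, 5.06, 9.18 and 5.88% of members. The thinned shares of the other cells were 4.69, 4.92, 5.99 and 4.88%. The members that carry border macrophage or monocyte markers are few. They hold 46.0 to 100% of the UMIs of H2-Aa, H2-Eb1, H2-Ab1 and Cd74, as given below. The summed level of the 8 monocyte markers in members was 147 and 27.0 CPM in the cKO libraries and 187 and 92.7 CPM in the Control libraries. In the other cells it was 92.1 and 33.6 CPM in cKO and 77.2 and 21.8 CPM in Control. Members were thus higher in each library except cKO replicate 2.

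Interferon genes were spread over a continuum of cells, with no gap at the threshold. In cKO replicate 1, 115 cells outside MGnD had a UMI of exactly 3 genes of the rule and 55 had exactly 4. The same counts were 111 and 69 in cKO replicate 2, 130 and 65 in Control replicate 1, and 69 and 61 in Control replicate 2. The cells just inside and just outside had the same median of 1 detected gene of the rule when each was thinned to 2000 UMIs. The strongest cells, with 8 to 10 of the 10 genes, numbered 45 and 43 in the cKO libraries and 32 and 11 in the Control libraries.

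**Figure D1:**
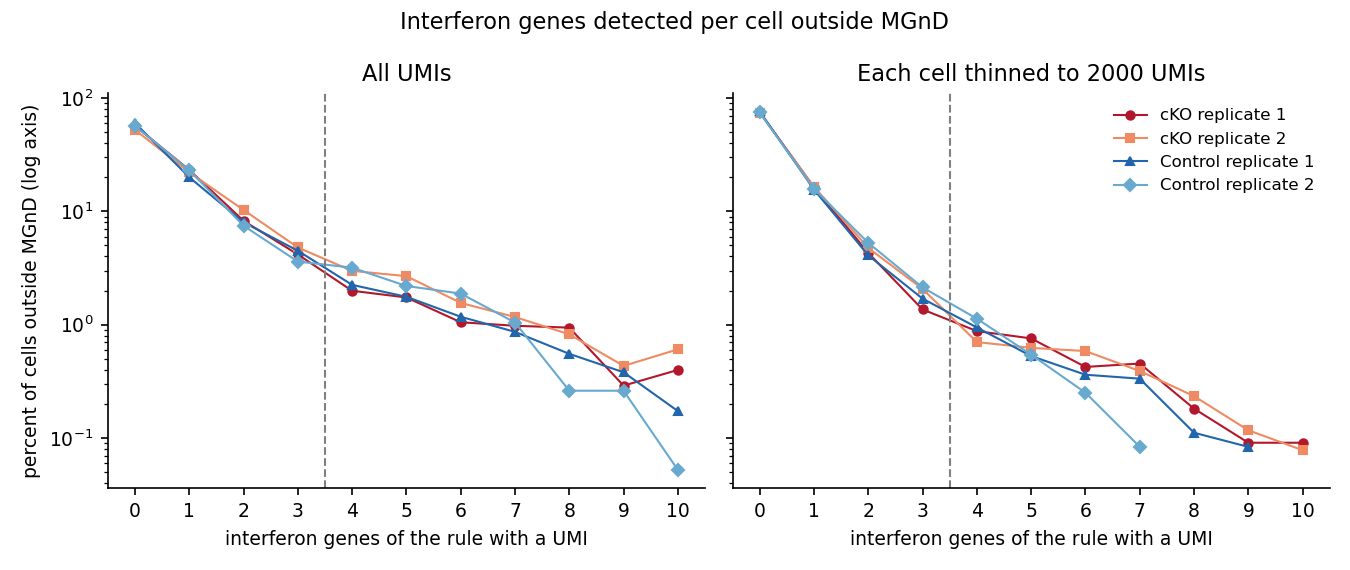
Percent of cells outside MGnD (log axis) by the number of interferon genes of the rule with a UMI, with all UMIs and with each cell thinned to 2000 UMIs; lines are the 4 libraries, the dashed line is the threshold of 4 genes, and counts of 0 cells are not drawn. The share falls without a gap across the threshold in every library, and Control replicate 2 has the fewest cells with 8 or more genes.

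Members were deeper than the cells beside them. Their median depth was 8526 and 9083 UMIs in the cKO libraries and 9110 and 7972.5 UMIs in the Control libraries. Other cells outside MGnD had medians of 5726, 6997, 5660.5 and 5891 UMIs, and cells with both programmes 15130 to 16964.5 UMIs. A deeper cell has more chances to show 4 genes, so shares were also taken at 1 fixed depth. At 2000 UMIs per cell 70 of 204, 64 of 237, 59 of 207 and 38 of 170 members still had 4 or more interferon genes. Droplets holding only the free RNA of each library would meet the rule at that depth in 0.038 to 0.102% of cases, against 2.01 to 2.88% of the cells outside MGnD. These rates were worked out at 2000 UMIs only. The part of free RNA in members chosen with all UMIs, at greater depth, was not tested.

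The number of interferon-responsive cells did not differ between genotypes beyond the spread of the libraries. Members were 7.39% (204 of 2760 cells outside MGnD, exact binomial 95% interval 6.44 to 8.43%) and 10.3% (237 of 2311, 9.05 to 11.6%) in the cKO libraries. In the Control libraries they were 7.16% (207 of 2893, 6.24 to 8.16%) and 8.89% (170 of 1913, 7.65 to 10.3%), the intervals covering counting error only. Replicates of each genotype lay farther apart than the genotype means, 8.82% ± 2.03 (SD, n = 2) and 8.02% ± 1.22 (SD, n = 2). The difference of 0.80 percentage points had p = 0.667 (exact two-sided permutation test over libraries, where 0.333 is the smallest p that 2 against 2 allows). Without cKO replicate 2 it was -0.63 points and without Control replicate 1 it was -0.06 points, so its direction rests on those libraries. At 2000 UMIs per cell the shares were 2.88 and 2.73% in cKO and 2.37 and 2.01% in Control. There the genotypes did not overlap, with a difference of 0.617 points and the smallest possible p of 0.333. Both sides of the rule were applied to the thinned counts, so some cells left MGnD. In cKO 25 of 95 and 6 of 70 members at that depth were not members with all UMIs. In Control these were 26 of 85 and 10 of 48. Of all cells, members were 5.69 and 8.89% in cKO and 5.18 and 6.46% in Control (p = 0.667, exact permutation test).

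The interferon part of the rule was met more often inside MGnD, and depth moves with that. Among MGnD cells 23.5, 25.9, 25.4 and 27.2% also met it in cKO replicates 1 and 2 and Control replicates 1 and 2. After thinning every cell to 2000 UMIs and applying both sides of the rule again, the shares were 3.20, 2.91, 1.73 and 1.23%. These were 9 of 281, 3 of 103, 7 of 405 and 3 of 243 MGnD cells. Members outside MGnD were 2.88, 2.73, 2.37 and 2.01% at that depth. Thinning also moves cells out of MGnD, so the classes differ from those above and the part of depth cannot be read from these shares.

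Promoter sequence was set beside the leading member genes. Of the 15 genes with the largest ratio of members to other cells (average log2 CPM of at least 4), 13 had a promoter entry and 4 carried the letters GAAANNGAA, the core of the response element, within 100 bases before the start site. They are printed 5′ to 3′ on the gene's strand, from 100 bases before the start to the base before it (RefSeq, GRCm38.p6), with the match in capitals. In Gbp2 and Slfn9 the match is on the opposite strand and so reads as its reverse complement. The stretches are chr1:173741810-173741909 (minus strand) for Ifi207, chr3:142620563-142620662 (plus strand) for Gbp2, chr14:59341331-59341430 (minus strand) for Phf11b and chr11:82991831-82991930 (minus strand) for Slfn9.
Ifi207: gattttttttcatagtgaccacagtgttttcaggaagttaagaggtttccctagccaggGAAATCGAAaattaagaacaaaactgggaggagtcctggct
Gbp2: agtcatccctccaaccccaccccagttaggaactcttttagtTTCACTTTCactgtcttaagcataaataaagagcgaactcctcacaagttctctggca
Phf11b: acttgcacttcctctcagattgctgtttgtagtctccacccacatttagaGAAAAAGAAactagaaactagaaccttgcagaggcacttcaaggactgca
Slfn9: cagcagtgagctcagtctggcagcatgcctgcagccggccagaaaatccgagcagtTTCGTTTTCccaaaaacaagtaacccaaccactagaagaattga

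The leftmost base of the match lay 41, 58, 50 and 44 bases before the start in Ifi207, Gbp2, Phf11b and Slfn9. Over the whole table window (250 bases before to 50 after the start), GAAANNGAA on either strand was present for 51 of the 98 genes called higher in members that had a promoter entry (52.0%). It was present for 797 of 8958 compared genes with an entry (8.90%) and in 8.56% of all promoters in the table. Within the last 100 bases before the start it was present for 32 of those 98 genes (32.7%) and for 2.67% of the compared genes. The gamma-activated site core TTCNNNGAA, its own reverse complement and a different run of letters, was present for 14 of the 98 genes (14.3%), against 8.31% of compared genes and 8.30% of all promoters. A match is a description of letters, and for a gene without one it says only that these letters are not in the window.

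Antiviral genes outside the rule were higher in members than in other cells outside MGnD in every library. Ratios were taken within each library and are given as log2 with the SD over the 4 libraries, and a gene was called where all 4 had the same sign and the mean was at least 1. Since the members were chosen by UMIs of the same cells, the ratios are a description with no test, and genes induced with the chosen ones had to be high. By this measure 129 of 11610 compared genes were called higher (1.11%) and 4 lower (0.0345%). Of 51 further antiviral genes 45 were called higher and none lower, all 51 were higher in every library, and their median was 1.77 against -0.01 over all genes. Levels in this and the following paragraphs are CPM scaled by TMM factors.

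Ifi207, a DNA-binding protein of the Ifi200 family, was at 74.4, 70.4, 54.0 and 69.9 CPM in members of cKO replicates 1 and 2 and Control replicates 1 and 2. In the other cells it was at 5.03, 3.81, 3.77 and 3.86 CPM, a log2 ratio of 3.73 ± 0.18 (SD, n = 4). Every member value lay far above every value of the other cells. Mx1, a dynamin-like GTPase that blocks influenza viruses, was at 95.8, 92.4, 70.1 and 62.7 CPM against 6.61 to 8.07 CPM (log2 3.31 ± 0.40). Oasl2, of the 2′-5′ oligoadenylate synthetase family, was at 147, 123, 118 and 132 CPM against 12.7 to 14.2 CPM (3.17 ± 0.13). Zbp1, a sensor of Z-form nucleic acid that can start cell death, was at 58.4 to 76.4 CPM against 5.71 to 7.28 CPM (3.14 ± 0.20). Ifitm3, a membrane protein that hinders viral entry, was at 411, 354, 374 and 378 CPM against 62.2 to 81.0 CPM (2.34 ± 0.13). Further ratios were 2.72 ± 0.13 for Ifi209, 2.52 ± 0.30 for the exonuclease Isg20, and for Samd9l, Phf11b and Slfn9 2.17 ± 0.18, 2.04 ± 0.13 and 2.01 ± 0.33. Below an average log2 CPM of 4, the antiviral genes Ifit3b and Ifi211 had ratios of 4.05 ± 0.65 and 3.68 ± 0.25. Fgl2, a fibrinogen-like immune regulator outside the antiviral list, was at 2.10 ± 0.24. For these genes the libraries were close to each other and the classes did not overlap.

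**Figure D2:**
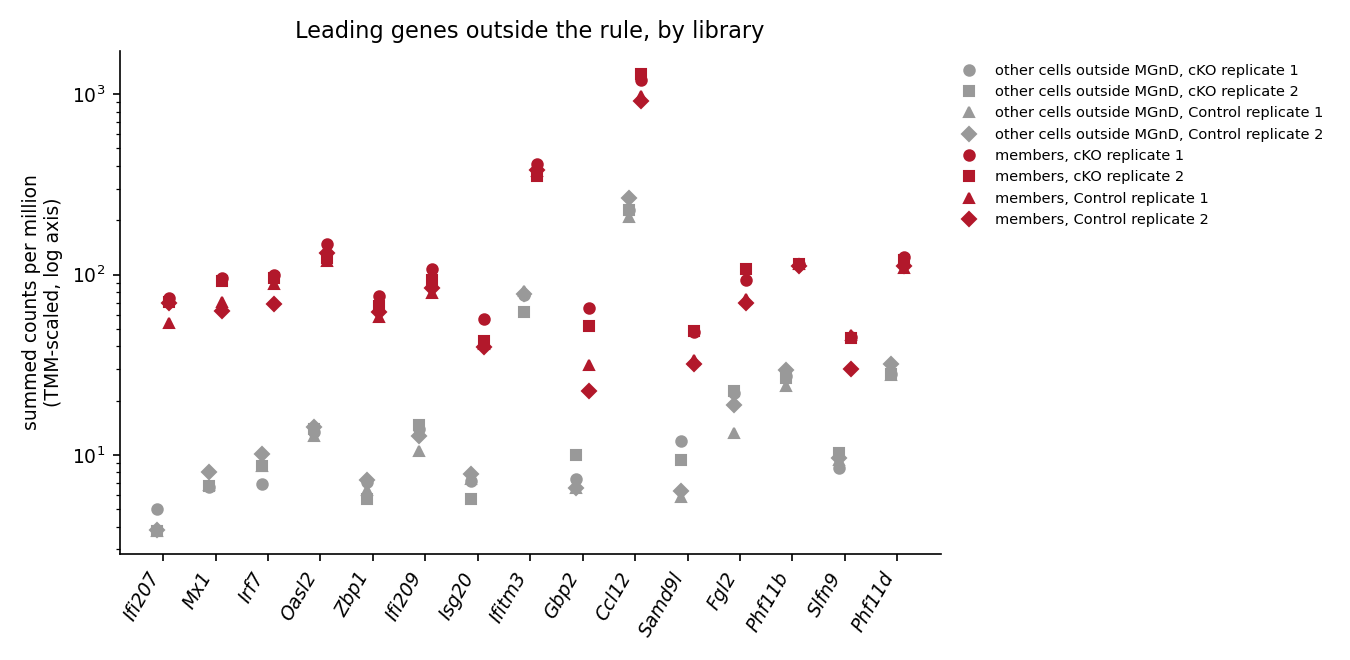
TMM-scaled CPM (log axis) of the 15 genes outside the rule with the largest mean ratio among those with an average log2 CPM of at least 4, in members (red) and other cells outside MGnD (grey); each point is the summed count of 1 library. For each of the 15 genes all 4 member values lie above all 4 values of the other cells.

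Of the signalling chain, the parts that interferon itself induces stood out and the receptors did not. Irf7, the factor that amplifies type I interferon, was at 99.1, 96.1, 89.0 and 68.3 CPM in members against 6.88, 8.66, 8.74 and 10.1 CPM (log2 3.21 ± 0.43). Stat2 was at 81.7, 79.4, 64.8 and 60.6 CPM against 18.4, 21.8, 19.0 and 20.5 CPM (1.79 ± 0.24). Both were called, and the median over 22 receptor, kinase and transcription factor genes was 0.07. The inhibitor Socs1 (0.81 ± 0.28) and the factor Irf1 (0.70 ± 0.20) were higher in all 4 libraries without reaching 1. Of 16 measured nucleic acid sensor genes 3 were called, the RIG-I-like receptors Dhx58 (1.67 ± 0.07), Ddx58 (1.53 ± 0.06) and Ifih1 (1.36 ± 0.23), and the median was 0.30.

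Interferon-induced GTPases, which act on membranes of intracellular pathogens, were called higher in 13 of 16 with a median of 1.47. Gbp2 was at 65.5, 51.6, 31.4 and 22.6 CPM in members against 7.32, 9.98, 6.59 and 6.58 CPM (2.25 ± 0.57). Iigp1, an immunity-related GTPase, was at 109.6, 80.0, 49.9 and 24.1 CPM against 2.08, 4.16, 1.15 and 2.37 CPM (4.15 ± 0.97), with the widest spread over libraries of the genes named so far. Of 26 MHC class I and peptide-loading genes 3 were called (Nlrc5 at 1.94 ± 0.29, Tap1 at 1.09 ± 0.13, H2-T24 at 1.01 ± 0.14). All 26 had a ratio above 0 and 22 were higher in every library, with a median of 0.41. The light chain B2m was at 2357, 2817, 1995 and 2309 CPM in members and 2107, 2372, 1807 and 1955 CPM in the other cells (0.20 ± 0.05). The class I genes were thus higher by small amounts that were alike across libraries. Of 9 MHC class II genes 4 were called higher, with a list median of 0.91. They were H2-Aa (1.58 ± 0.62), H2-Eb1 (1.46 ± 0.66), Cd74 (1.33 ± 0.45) and H2-Ab1 (1.30 ± 0.70). All 9 had a ratio above 0 and 5 were higher in every library. The share of the UMIs of these 4 genes held by members with border macrophage or monocyte markers is given above.

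Ccl12 led the chemokines outside the rule. Ccl12, a ligand of the monocyte receptor CCR2, was at 1198, 1299.7, 982 and 922 CPM in members against 228, 227, 209.6 and 267 CPM (2.23 ± 0.32). Of 21 measured cytokine and chemokine genes 4 were called (Ccl12, Ccl5, Tnfsf10 and Il18bp), with a median of 0.46. Ccl5, a T cell attractant, was at 24.3, 91.7, 6.85 and 15.4 CPM against 8.25, 6.75, 4.19 and 12.02 CPM (1.49 ± 1.47), and the classes overlapped.

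The homeostatic programme was nearly level. Of 20 homeostatic genes none was called, 18 had a ratio below 0 and the median was -0.07. P2ry12, the ADP receptor of resting microglia, was at 2432, 2486, 2762 and 2476 CPM in members and 2762, 2893, 3007 and 2656 CPM in the other cells (-0.16 ± 0.05). Gpr34, a lysophospholipid receptor, was at -0.25 ± 0.02 and lower in each library. Further MGnD genes had a median of 0.07 with 2 of 26 called higher (Lgals3 and Cybb), and heat shock genes a median of 0.07 with none of 12 called. The 4 genes called lower were Ttr, Enpp2, Chil3 and Pglyrp1, of which the last 3 were named after their values were seen. Ttr, the choroid plexus transthyretin, was at 0, 6.80, 123 and 1.54 CPM in members and 59.4, 91.6, 598 and 59.9 CPM in the other cells. Neutrophil markers were higher in the other cells than in members in 3 of 4 libraries: the summed level of 8 markers was 549, 75.0, 570.0 and 1.25 CPM in the other cells and 0.814, 1.27, 2.04 and 2.47 CPM in members of cKO replicates 1 and 2 and Control replicates 1 and 2. The part of such cells in the ratios was not tested.

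Within the members the response was graded. The summed level of the 51 antiviral genes was 1815, 1979, 1900 and 1891 CPM in the other cells of cKO replicates 1 and 2 and Control replicates 1 and 2. In members with 4 or 5 genes of the rule it was 4345, 4275, 3800 and 4729 CPM, and in those with 6 or 7 it was 5815, 6037, 5547 and 5231 CPM. In those with 8 to 10 it was 8882, 11408, 12702 and 7312 CPM. Each step was upward in each library, and the last value of Control replicate 2 comes from 11 cells. Ccl12 and Iigp1 were concentrated in the strongest cells. Iigp1 was at 8.29 to 17.1 CPM with 4 or 5 genes and at 329.9, 390.4, 285 and 83.3 CPM with 8 to 10. B2m differed little along the same steps, and P2ry12 went from 2525 to 3010 CPM in the other cells to 2273 to 2608 CPM in the strongest. The bins were cut on genes induced together with these, so the steps are a description.

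**Figure D3:**
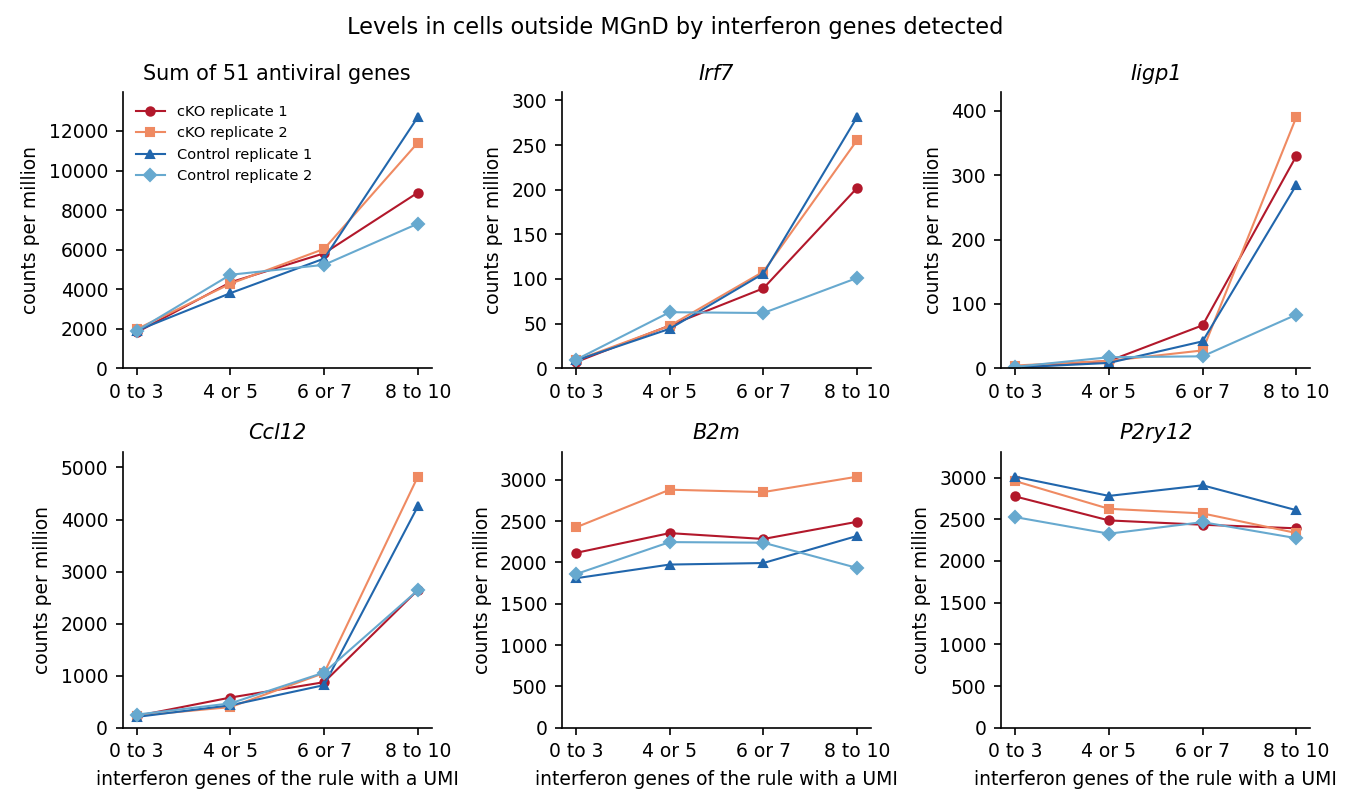
CPM in cells outside MGnD, by the number of interferon genes of the rule with a UMI (0 to 3 are the other cells); each line is 1 library and each panel a gene or the sum of 51 antiviral genes outside the rule, on linear axes from 0. The antiviral sum, Irf7, Iigp1 and Ccl12 are highest in the cells with 8 to 10 genes, B2m and P2ry12 differ little, and the last point of Control replicate 2 rests on 11 cells.

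Set against cells with both programmes, the members were lower in most further MGnD genes, while few antiviral genes differed by the size needed for a call. Of 10255 compared genes 25 were called higher in members (0.244%) and 224 lower (2.18%), a split of 69 higher and 170 lower without TMM scaling, which moves the median of all genes by -0.16. Of 26 further MGnD genes 16 were called lower and none higher, with a median of -1.17 against 0.03 over all genes. Because the rule set the MGnD genes apart, their direction is fixed by the choice. Apoe, the lipid carrier induced in MGnD, was at 1468, 1152, 1077 and 1498 CPM in members and 7135, 8462, 6822 and 8957 CPM in the cells with both programmes (-2.60 ± 0.25). Spp1, osteopontin, was at 2.30 to 2.94 CPM against 27.4 to 49.8 CPM (-3.49 ± 0.32). Ch25h, the cholesterol 25-hydroxylase, was lower in members by a mean log2 of -3.89 ± 1.15, and the inflammatory chemokines Ccl3 and Ccl4 were at -1.23 ± 0.29 and -1.15 ± 0.36. All values of these genes in members lay below all values in the cells with both programmes.

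The antiviral list itself had a median of 0.34 in that comparison. Of its 49 compared genes 40 had a ratio above 0 and 30 were higher in members in all 4 libraries, with 1 of 49 genes called higher (Mx1, 1.04 ± 0.23) and 1 lower (Ifi27l2a, -1.02 ± 0.08). The largest ratios upward belonged to monocyte markers of low level. Of 4 compared markers of the monocyte list 3 were called higher, with a median of 2.36 over the 4: S100a6 (2.56 ± 1.49), S100a4 (2.44 ± 0.69) and Plac8 (2.29 ± 1.21). Plac8 was at 50.99, 16.97, 43.9 and 11.8 CPM in members against 2.35, 4.86, 7.75 and 4.49 CPM, and the part of monocyte-marker cells in this comparison was not tested. Among genes with an average log2 CPM of at least 4, Ly6a, the surface protein Sca-1, had the largest ratio, at 58.7, 61.5, 44.7 and 59.3 CPM against 17.6, 29.2, 14.6 and 22.5 CPM (1.41 ± 0.27). Gbp7 was at 1.13 ± 0.12, Trim30c at 1.17 ± 0.32 and Ccl12 at 1.03 ± 0.30. Homeostatic genes had a median of 0.20, with none of 20 called. Tmem119 was at 1170.1, 1271, 1141 and 1062 CPM in members and 923, 780.2, 815 and 675 CPM in the cells with both programmes (0.55 ± 0.16). B2m was lower in members (-0.69 ± 0.17). Cells with both programmes were also deeper than members (medians above), and the part of depth in these ratios was not tested.

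Loss of miR-155 was tested within members on UMIs summed per library (edgeR quasi-likelihood F test, Benjamini-Hochberg over 10181 genes outside the rule). At an adjusted p under 0.05, 16 genes rose (0.157%) and 8 fell (0.0786%) in cKO. An unadjusted p under 0.05 was found for 583 of the 10181 genes, a share near the 0.05 that would arise without any difference. DESeq2 called 4 of the 24, of which 1 was among the 16 that rose and 3 were among the 8 that fell. The 3 libraries that share a run code gave 31 calls, 17 of them among the 24. Without cKO replicate 1 there were 102 calls, without Control replicate 1 there were 42, and without Control replicate 2 there were 77.

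Cx3cr1, the fractalkine receptor (ENSMUSG00000052336, chr9:119901616-120069879, minus strand, GRCm38), fell in cKO. It was at 2646 and 2743 CPM in members of the cKO libraries and at 5598 and 4841 CPM in the Control libraries. The log2 change was -0.96 (SE 0.13, edgeR adjusted p = 0.00122), and the call held in each alternative run. The other cells outside MGnD had 2593 and 2840.1 CPM in cKO and 5362 and 4658 CPM in Control, and the genotype difference did not differ detectably between members and other cells (interaction log2 -0.07, SE 0.04, edgeR adjusted p = 0.959). None of the other 19 homeostatic genes passed. The labels do not say whether the cKO mice carry a modified Cx3cr1 allele.

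Among heat shock genes Hspa1b and Hspa1a, inducible HSP70 chaperones, rose and the other 10 did not pass. Hspa1b was at 223 and 360.5 CPM in cKO members and 124 and 118 CPM in Control members (log2 1.27, SE 0.16, edgeR adjusted p = 0.000419). Hspa1a was at 288 and 409.9 CPM against 187 and 107 CPM (1.23, SE 0.18, edgeR adjusted p = 0.00154). Their near-identical sequences mean that reads could be split between them. The genotypes did not overlap for either gene, as for 3495 of all 10196 genes measured in members (34.3%). DESeq2 passed neither (adjusted p = 0.394 and 1.00). In the other cells Hspa1b was at 210.0 and 346 CPM in cKO and 136 and 95.2 CPM in Control, close to members of the same library. The share of members with a UMI of Hspa1a, Hspa1b or Dnajb1 was 81.9 and 86.9% in cKO and 77.3 and 70.6% in Control (p = 0.333, exact permutation test). Of the other cells, at a lower median depth, it was 69.9, 83.4, 67.4 and 62.1%. With each cell thinned to 2000 UMIs the shares were 50.5, 65.8, 47.3 and 32.9% of members. Those of the thinned other cells were 48.2, 62.0, 43.3 and 35.5%, in the same library order.

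Cdkn1a, the p21 cell cycle inhibitor (ENSMUSG00000023067, chr17:29090976-29100727, plus strand, GRCm38), rose. It was at 128 and 78.5 CPM in cKO members and 43.9 and 36.0 CPM in Control members (log2 1.33, SE 0.19, edgeR adjusted p = 0.00133). In the other cells it was at 68.1 and 59.2 CPM in cKO and 32.5 and 30.1 CPM in Control. Its interaction between genotype and state did not pass (log2 0.31, edgeR adjusted p = 0.927). At 2000 UMIs per cell the change was 0.85 and no longer passed (edgeR adjusted p = 0.803).

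**Figure D4:**
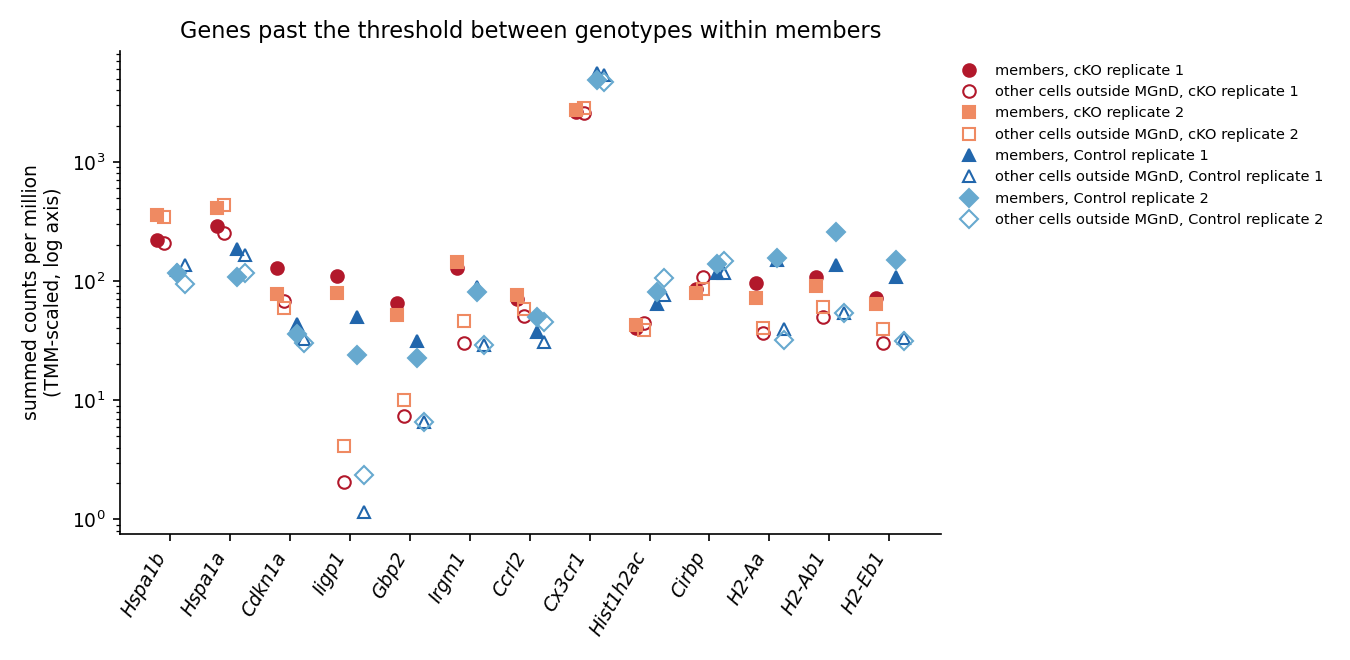
TMM-scaled CPM (log axis) of 13 genes past the threshold between genotypes within members; filled points are members, open points the other cells outside MGnD, red and orange cKO, blue Control, each point 1 library. Cx3cr1, Hspa1b, Hspa1a and Cdkn1a separate by genotype in both classes. The 3 MHC class II genes (at right) separate only among the filled points, whose UMIs lie mostly in a few cells. Of all 10196 genes measured in members, 34.3% separate by genotype.

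Interferon-induced genes leaned upward in cKO members, with few past the threshold. The mix of weaker and stronger members was not the same in each library. The strongest cells, as counted above, were 45 of 204 and 43 of 237 members in cKO. In Control they were 32 of 207 and 11 of 170. The part of this mix in the genotype and interaction results was not tested. Of 50 measured antiviral genes 46 had a higher level in cKO and 4 a lower one, with a median log2 of 0.22 against 0.01 over all genes, and none passed. Mx1 was nearest at 0.49 (edgeR adjusted p = 0.204), at 95.8 and 92.4 CPM in cKO and 70.1 and 62.7 CPM in Control. The GTPases had a median of 0.62, with 3 of 15 passing. Iigp1 rose (values above, log2 1.29, SE 0.21, edgeR adjusted p = 0.00276), as did Gbp2 (1.08, SE 0.18, adjusted p = 0.00604) and Irgm1, at 128 and 144 CPM against 89.8 and 81.2 CPM (0.66, SE 0.12, adjusted p = 0.0136). Irgm1 did not pass without cKO replicate 2 (0.57, edgeR adjusted p = 0.0759), and none of the 3 passed in DESeq2 or at 2000 UMIs per cell.

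No gene of the class I list passed, with a median of 0.16. H2-Q7, which shares near-identical relatives, came nearest of the class I genes at 0.81 (edgeR adjusted p = 0.0758). No receptor or JAK-STAT gene passed, with a median of 0.08, and no sensor gene passed.

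Cytokine and chemokine genes held 5 of the 16 risers: Cxcl9, Il1b, Ccl5, Ccl7 and Ccrl2, among 22 measured with a median of 0.53. Over all 16 risers, DESeq2 called only 1 gene. All but Ccrl2 had UMIs in few members. Cxcl9, a CXCR3 ligand, had 166 and 108 UMIs in cKO, from 8 members each, and 0 and 24 UMIs in Control, from 0 and 1 members (log2 3.15, SE 0.50, edgeR adjusted p = 0.00276). Ccl5 had 60 and 297 UMIs in 18 and 31 cKO members and 17 and 30 UMIs in 5 and 6 Control members (2.48, SE 0.44, edgeR adjusted p = 0.00809). Without cKO replicate 2 it did not pass (1.17, edgeR adjusted p = 0.0735). Il1b, interleukin-1 beta, was at 15.4 and 16.1 CPM against 4.03 and 3.60 CPM (2.02, SE 0.35, edgeR adjusted p = 0.00693). In cKO replicates 1 and 2 and Control replicates 1 and 2, 14, 18, 7 and 5 members had a UMI of Il1b, and 18, 20, 11 and 5 had one of Ccl7. Ccl7 was at 12.9 and 20.4 CPM against 5.24 and 4.11 CPM and did not pass without cKO replicate 2 (1.43, edgeR adjusted p = 0.386). Ccrl2, a chemerin-binding receptor with UMIs in 82, 97, 60 and 64 members, was at 71.2 and 76.0 CPM against 37.0 and 50.3 CPM (0.77, SE 0.15, edgeR adjusted p = 0.0235), and did not pass without Control replicate 1 (0.54, edgeR adjusted p = 0.471).

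Of 8 measured MHC class II genes 3 fell in cKO members, and those calls ended when few cells were left out. The list had 6 genes lower and 2 higher in cKO, with a median of -0.34. H2-Aa, the alpha chain of I-A, was at 96.2 and 72.6 CPM in cKO and 151 and 155 CPM in Control (log2 -0.87, SE 0.13, edgeR adjusted p = 0.002). H2-Eb1 was at -0.93 (adjusted p = 0.00233) and H2-Ab1 at -0.99 (adjusted p = 0.0164). Cd74, the invariant chain, was at -0.68 and did not pass (adjusted p = 0.0614). In cKO replicates 1 and 2 and Control replicates 1 and 2, 14, 18, 7 and 18 members held all H2-Aa UMIs, and the top 5 cells held 93.3, 82.1, 99.2 and 89.0% of them. Members with border macrophage or monocyte markers held 77.3, 72.3, 98.7 and 81.4%. Leaving such cells out gave 0.45 for H2-Aa (edgeR adjusted p = 0.941), 0.07 for H2-Ab1 (0.991) and -0.08 for H2-Eb1 (0.995), as an alternative chosen after seeing the data. H2-Ab1 also did not pass without Control replicate 2 (-0.48, edgeR adjusted p = 0.168). The share of members with 2 or more of those 4 genes was 14.2 and 18.1% in cKO and 4.83 and 16.5% in Control (p = 0.667, exact permutation test). Of the other cells it was 2.90 to 7.09%.

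**Figure D5:**
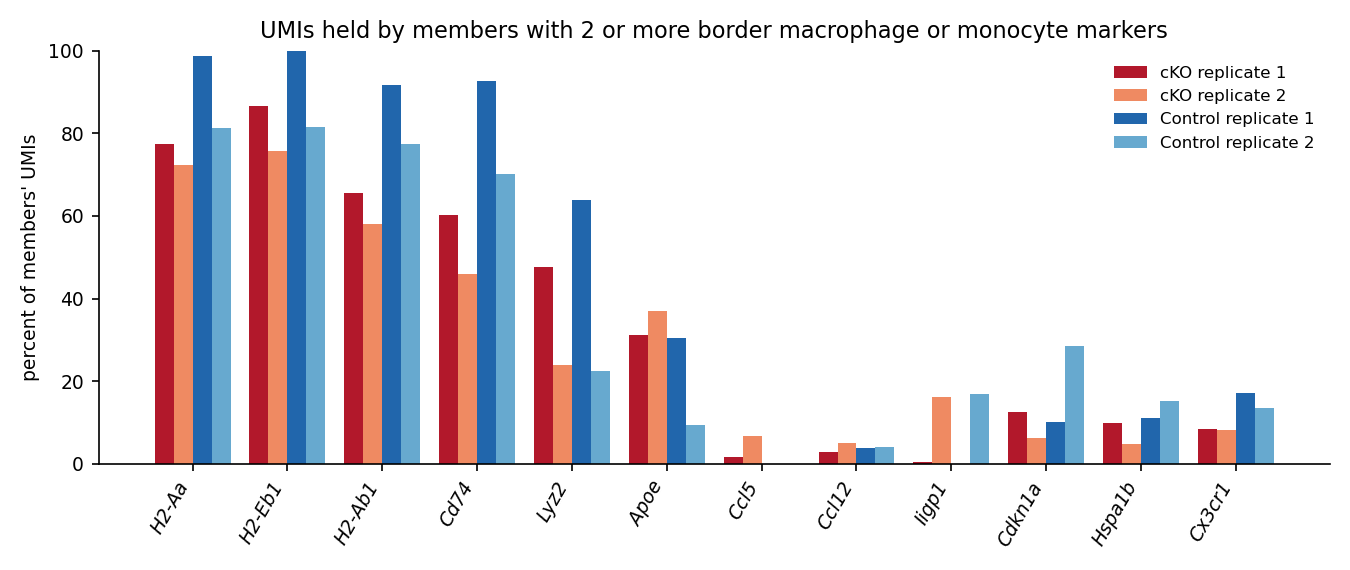
Percent of the members' UMIs of each gene that lie in members with 2 or more border macrophage or monocyte markers; bars are the 4 libraries and start at 0. The bars of the MHC class II genes reach from 46.0 to 100%, while those of Ccl12 and Hspa1b reach at most 15.3%.

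The remaining calls among the genes named by the rule were Hist1h2ac, a histone H2A gene, at 40.4 and 42.9 CPM in cKO and 63.6 and 81.7 CPM in Control (-0.79, SE 0.15, edgeR adjusted p = 0.0185), and the cold-inducible RNA-binding protein Cirbp at 84.9 and 79.7 CPM against 117 and 139 CPM (-0.64, SE 0.13, adjusted p = 0.0217). Neither passed without Control replicate 2 (edgeR adjusted p = 0.137 and 0.127), and Cirbp did not pass without cKO replicate 2 (0.0912). In the other cells Hist1h2ac was at 44.7 and 39.0 CPM in cKO and 76.9 and 106 CPM in Control.

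Whether the genotype changes members differently from the other cells outside MGnD was tested as an interaction with library as a block (edgeR, 12075 genes outside the rule). At an adjusted p under 0.05, 6 genes were higher (0.0497%) and 13 lower (0.108%) in cKO members relative to that expectation, and DESeq2 called none. An unadjusted p under 0.05 was found for 47 genes in DESeq2 and for 637 of 12075 in edgeR, the latter again a share near 0.05. No call was left when every cell was thinned to 2000 UMIs. Ccl12 was at 0.44 (edgeR adjusted p = 4.68e-05), Ccl2 at 0.50 (0.00106) and the ubiquitin ligase Herc6 at 0.55 (0.0203), the called member of the antiviral list. Ccl2 and Herc6 did not pass without cKO replicate 1 (edgeR adjusted p = 0.471 and 0.614), and Herc6 not without Control replicate 2 (0.312). Ccl5 at 2.40 did not pass without cKO replicate 2 (edgeR adjusted p = 0.394), and Cxcl9 at 2.63 not without cKO replicate 1 (0.166). Of the MHC class II list 4 of 9 were called lower. The share of these genes' UMIs held by members with border macrophage or monocyte markers is given above. Il1b was higher as well, at 2.06 (edgeR adjusted p = 0.00136). Cxcl2, a neutrophil attractant, was called lower (edgeR adjusted p = 0.0312) at no more than 3.22 CPM in any library of either class. Of 7 measured monocyte markers 3 were also lower, Ccr2 at -1.60, Ly6c2 at -3.26 and Fn1 at -2.68 (edgeR adjusted p = 0.000504, 7.36e-05 and 0.0308), with a list median of -1.46. Ccr2 was at 19.4 and 3.40 CPM in cKO members and 34.2 and 32.8 CPM in Control members. Ly6c2 had 16 and 0 UMIs in cKO members and 41 and 0 UMIs in Control members. The 3 markers were thus called in the same direction as MHC class II without moving alike over the libraries. Their part in the MHC class II calls was not tested. Ttr, Vim and S100a11 were lower too. Of the interaction calls, Il1b, Cxcl2, the monocyte markers and these 3 genes were named after their values were seen. The interferon receptor, GTPase, class I, homeostatic and heat shock lists held no call.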

How the data were processed

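The deposited files of each library hold whole-number UMI counts per gene and barcode, made by the authors with Cell Ranger 4.0.0, per the submitters' processing notes. The other deposited columns are barcode names and gene identifiers, with no measurement; the build is mm10 per the labels. Members, lists, thresholds and the rule for named genes were chosen with earlier results of these data known. UMIs were summed per library and class; cells were not treated as replicates. Genotype effects were tested with edgeR 4.0.16 (R 4.3.3; TMM, filterByExpr, quasi-likelihood F test, Benjamini-Hochberg), with 2 libraries per genotype and, for the interaction, library as a block. DESeq2 1.42.0 was an alternative. Ratios between classes are log2 of TMM-scaled CPM plus 1. Genes named from the genotype fit are up to 10 per direction by p among those with non-overlapping genotypes and a mean log2 CPM of 4 or more, up to 4 per list, and preset checks. Genes named between classes are the 15 highest and 10 lowest mean ratios (8 each against cells with both programmes) and up to 5 per list. Shares were compared by exact permutation tests (scipy 1.17.1). Free RNA was taken from barcodes with at most 100 UMIs. Doublets were kept; Scrublet (scanpy 1.11.5) at a fixed rate gave an alternative, since its own threshold called 0 or 1 cell per library. The tests were checked on simulated data. Replicate numbers did not pair libraries. Promoters came from RefSeq (GRCm38.p6), gene positions from GENCODE M21. Some genes may not be reported here.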

Additional observations from a re-analysis of the deposited data

Results flagged for a closer look

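Of the 19 genes outside the rule for which the difference between cKO and Control was not the same in members as in other cells outside MGnD, by the edgeR interaction term with Benjamini-Hochberg adjustment, 11 were chosen by the rule for named genes and are given here. Values are log2, members against other cells, cKO minus Control.

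The MHC class II genes were lower: H2-Aa at -0.97 (SE 0.13, adjusted p = 5.02e-06), H2-Eb1 at -1.02 (SE 0.14, adjusted p = 7.01e-06), H2-Ab1 at -0.99 (SE 0.14, adjusted p = 7.01e-06) and Cd74 at -0.61 (adjusted p = 7.36e-05), the last not passing without Control replicate 2 (adjusted p = 0.310). Lyz2, lysozyme of macrophages and monocytes, was at -0.40 (adjusted p = 0.000104) and Apoe at -0.24 (adjusted p = 0.00857). Lyz2 did not pass without Control replicate 1 (adjusted p = 0.0648), and Apoe not without cKO replicate 1, cKO replicate 2 or Control replicate 1 (adjusted p = 0.166, 0.249 and 0.269).

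Of the chemokines, 4 were higher and Cxcl2, at no more than 3.22 CPM in any library, was lower. Those higher were Ccl5 at 2.40 (adjusted p = 1.29e-05), Ccl12 at 0.44 (adjusted p = 4.68e-05), Ccl2 at 0.50 (adjusted p = 0.00106) and Cxcl9 at 2.63 (adjusted p = 0.00106). Ccl12, the gene among these with the most UMIs, was at 1198, 1299.7, 982 and 922 CPM in members of cKO replicates 1 and 2 and Control replicates 1 and 2, and at 228, 227, 209.6 and 267 CPM in the other cells. Herc6 was at 0.55 (adjusted p = 0.0203), with 155 and 132 CPM in cKO members and 115 and 99.1 CPM in Control members. DESeq2 passed none of these genes.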

How the results depend on the processing

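Values below are from edgeR unless named, and the cause of each change was not tested. Leaving out cells with markers of another type kept 112 of 204 and 120 of 237 members in cKO. In Control it kept 117 of 207 and 102 of 170. The 24 genotype calls within members became 4 under DESeq2, 80 with no filter on low counts, 4 with cells thinned to 2000 UMIs, 6 with members kept by the rule and their counts thinned (chosen after seeing the data), 10 at 5 or more interferon genes, 11 without cells bearing markers of another type, and 31 to 102 with 1 library left out. The replicate block gave 29 calls, all 24 among them; replicate numbers did not pair the libraries (r = -0.06 over 7192 genes).

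The 19 interaction calls became 0 under DESeq2, 0 thinned, 1 with counts thinned, 2 at 3 or more genes, 3 at 5 or more genes, 5 without border macrophage and monocyte marker cells (chosen after seeing the data), and 21 to 27 with 1 library left out. The 133 genes called between members and other cells became 747 with cells thinned, 99 of them shared. The 249 against cells with both programmes became 440 without cells bearing other markers; the thinned version was not run, with 3 to 9 cells per library.

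Signs reversed as follows. Genotype, without other-type marker cells: H2-Aa 1.04, H2-Eb1 0.29, H2-Ab1 0.87, Cd74 1.05. Genotype, without border macrophage and monocyte marker cells: H2-Aa 0.45, H2-Ab1 0.072, Cd74 0.44. Xist was at 0.96 and ran from -0.044 to 15.4 with 1 library left out. Interaction, cells thinned: H2-Ab1 0.18, Cd74 0.15, Cxcl9 -1.86, Cdkn1a -0.11. Interaction, counts thinned: H2-Eb1 0.14, Cd74 0.29, Iigp1 -0.18. Interaction, 3 or more genes: H2-Aa 0.49, H2-Eb1 0.28, H2-Ab1 0.21, Cd74 0.27; at 5 or more, Cdkn1a -0.0049. Interaction, without other-type marker cells: H2-Aa 0.64, H2-Ab1 0.83, Cd74 0.93, Cdkn1a -0.075; without border macrophage and monocyte marker cells, Cd74 0.34. Interaction of Iigp1 was -0.32 without cKO replicate 1 and -0.50 without Control replicate 2, and up to 1.58 with another library left out. With 1 library left out, the share difference outside MGnD ran from -0.63 to 2.23 points, of all cells from -0.126 to 3.07, and of MHC class II cells from -0.291 to 11.3 (-0.204 thinned). The share with markers of any other type was -2.06 points thinned.

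With 2 libraries per genotype and 170 to 237 members in each, 0.333 was the smallest p a difference in share allowed, whatever its size.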

Other observations

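Cycling genes and MHC class II marked small sets of members. Members with 3 or more of 12 cycling genes numbered 4 and 5 in the cKO libraries and 2 in each Control library. Mki67, the proliferation antigen, was lower in members than in cells with both programmes by a mean log2 of -1.64 ± 1.22 (SD, n = 4).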
